A study of Mus musculus with 6 samples.

Results

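The ELR-type CXC chemokine cluster of the mouse is a group of small secreted attractant proteins encoded side by side on chromosome 5. It was examined here as 7 genes, Cxcl1, Cxcl2, Cxcl3, Cxcl5, Cxcl15, Ppbp and Pf4, taken by their symbol in the platform's probe-to-gene table, out of 19288 genes that the table names with a single symbol. Each of the 7 had 1 probeset. Transcripts were measured with 6 Affymetrix arrays, one summary value per gene model, in embryonic fibroblasts grown in culture, named dp53R in the series title and carrying the word Ras in every sample title, so both groups share whatever those names stand for; their meaning is not spelled out in the labels. The 3 control arrays came from cells with the construct shSCR and the 3 others from cells with the construct shARF, a short hairpin RNA named for the tumour suppressor ARF, which is encoded by Cdkn2a. The labels call the 3 samples of a group biological replicates without saying whether they were separate cultures or embryos, so the p-values measure only the spread between these samples, which may be technical. With 1 hairpin per group, an effect of lower ARF and any other effect of that hairpin cannot be told apart. The comparison asks how transcript levels differ between shARF and shSCR cells.

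CXC chemokines guide leukocytes. Those with the amino acids ELR (glutamate, leucine, arginine) just before the CXC cysteines attract neutrophils through the receptor CXCR2, and those without it act through other receptors. Fibroblasts are a known source of CXCL1 and CXCL5 when inflammatory signals such as IL-1 and TNF activate NF-kappaB, while the products of Ppbp and Pf4 are best known from platelet granules and that of Cxcl15 from lung epithelium. Pf4 belongs to the group by its place on the chromosome only, because platelet factor 4 is a CXC chemokine that lacks the ELR motif.

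The gene that encodes the hairpin target and the fibroblast markers were looked at first. Cdkn2a fell from a signal of 530.0 ± 12.3 (SD, n = 3) in shSCR to 285 ± 30.7 in shARF, a log2 difference of -0.90 ± 0.086 (SE; limma, adjusted p = 0.00459). That signal is for the gene model as a whole and does not single out the ARF transcript. All 13 listed fibroblast marker genes were above the detection level, the 25th percentile of each array's signals (14.1 to 14.9), on all 6 arrays. Most probesets exceed that level by its definition, so passing it does not identify the cell type. The same held for 10 of 12 platelet, 7 of 10 epithelial and 6 of 9 endothelial markers. Over the array 607 of 15145 tested genes changed at a limma adjusted p under 0.05, 4.01% of them; 361 (2.38%) were lower in shARF and 246 (1.62%) higher. At an unadjusted p under 0.05 the share was 22.2%.

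Within the cluster Ppbp, Cxcl5 and Cxcl1 fell in shARF cells, and no tested member rose. Of the 7 members, 4 were above the detection level on all 6 arrays and were tested, and the other 3 (Cxcl2, Cxcl15 and Pf4) were above it on 0 arrays. Of the 4 tested, 3 fell, where 2.38% of all tested genes were called lower. The median log2 difference of the 4 was -0.69, beside -0.012 over all tested genes. In whole cultures fewer expressing cells and less RNA per cell cannot be told apart.

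Ppbp encodes pro-platelet basic protein, the precursor of the neutrophil attractant NAP-2. Its signal on the control arrays, in the order of replicates 1, 2 and 3, was 215, 157 and 208, and on the shARF arrays in the same order it was 52.7, 59.9 and 60.4. Every shARF array lay far below the lowest control array, shSCR replicate 2, and the gap between the groups was 96.5 signal units. The mean went from 193 ± 31.6 (SD, n = 3) to 57.7 ± 4.30, a 3.32-fold fall, or -1.73 ± 0.128 (SE) on the log2 scale with a 95% interval of -2.03 to -1.43 (limma, adjusted p = 0.00225). It was the largest fall on the log2 scale among the 15145 tested genes.

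Cxcl5 encodes the neutrophil attractant also called LIX. Its signal was 255, 242 and 247 on the shSCR arrays and 158, 153 and 145 on the shARF arrays. The groups did not overlap, and within each the arrays lay close together. The mean went from 248 ± 6.31 (SD, n = 3) to 152 ± 6.31, a log2 difference of -0.71 ± 0.061 (SE), 95% interval -0.85 to -0.56 (limma, adjusted p = 0.0035).

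Cxcl1 encodes KC, the mouse counterpart of the GRO chemokines. Its signal was 194, 199.7 and 213 on the shSCR arrays and 134, 124 and 124 on the shARF arrays. Here too every shARF array was below every control array, by 60.3 signal units at the nearest. The log2 difference was -0.67 ± 0.066 (SE), 95% interval -0.82 to -0.51, from a mean of 202 ± 10.0 (SD, n = 3) to 127 ± 5.46 (limma, adjusted p = 0.00523). For these 3 genes every shARF array was below every control array, which held for 16.6% of all tested genes. Among all tested genes 0.423% fell further than Cxcl5 and 0.535% further than Cxcl1. All 3 genes kept their calls without any 1 array, with limma adjusted p of at most 0.0163 for Ppbp, 0.0263 for Cxcl5 and 0.0281 for Cxcl1.

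Cxcl3, which encodes a close relative of CXCL1 and CXCL2, did not pass the test. It gave 19.6, 24.3 and 19.5 on the shSCR arrays and 18.6, 19.7 and 22.8 on the shARF arrays, just above the detection level, and the groups overlapped. The log2 difference was -0.051 ± 0.114 (SE), 95% interval -0.32 to 0.22 (limma, adjusted p = 0.834). Its sign turned without shSCR replicate 2 (0.053) or without shARF replicate 1 (0.011).

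The 3 remaining members had no fold, since both groups were under the detection level on all arrays. Cxcl2, the gene of the neutrophil attractant MIP-2, measured 10.6, 8.25 and 9.11 in shSCR and 8.53, 7.63 and 10.7 in shARF. The Cxcl15 signal ran from 9.12 to 11.0 on control arrays and from 8.04 to 10.3 on shARF arrays. That of Pf4 ran from 6.50 to 7.19 on control arrays and from 5.10 to 8.46 on shARF arrays. The groups overlapped for all 3. The chemokines best known from platelets thus differed in detection, with Ppbp above the detection level on all 6 arrays and its neighbour Pf4 on 0. Cxcl1, Cxcl2 and Cxcl3 have similar transcripts that probes may not fully separate, and the Cxcl2 probeset stayed below the detection level on arrays where that of Cxcl1 gave 124 to 213.

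**Figure D1:**
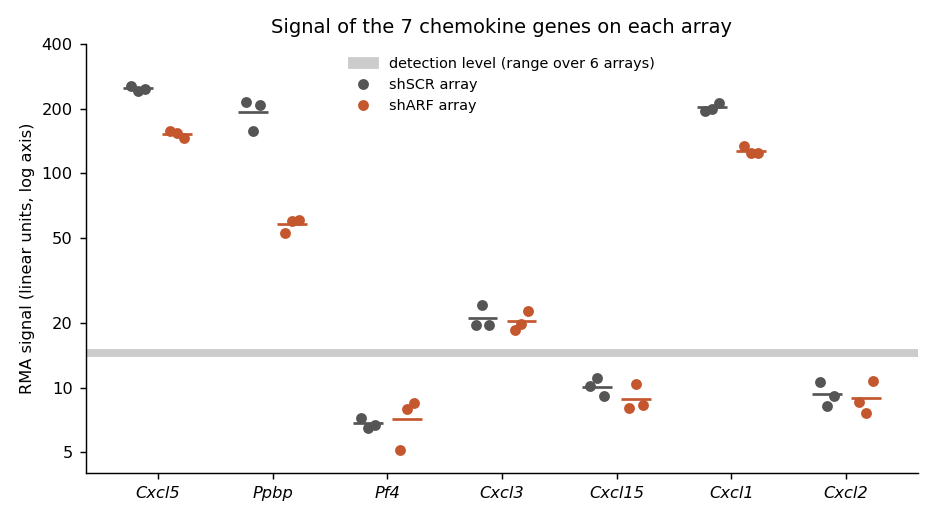
RMA signal (linear units on a log axis) of each member on the 3 shSCR arrays (grey) and the 3 shARF arrays (orange), in chromosomal order, with group means as lines and the range of the detection level as a band. The groups are separate for Cxcl5, Ppbp and Cxcl1, overlap just above the band for Cxcl3, and lie below it for Pf4, Cxcl15 and Cxcl2.

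The genes called lower were not all adjacent on the chromosome, though the genes between them were undetected or dim. In the order of the RefSeq gene table the cluster runs Cxcl5, Ppbp, Pf4, Cxcl3, Cxcl15, Cxcl1 and Cxcl2, with 0 other protein-coding genes between. Cxcl5 and Ppbp are adjacent at one end, and between them and Cxcl1 lie Pf4 and Cxcl15, both below the detection level, and Cxcl3, which did not pass. Of the 10 protein-coding genes beside the cluster, 5 on each side, 9 had a single-gene probeset, 5 were tested and 0 passed in limma. An unadjusted p under 0.05 was seen for 2 of the 5, beside 22.2% of all tested genes. Rassf6, which encodes a RAS-association domain protein and borders Cxcl5, measured 21.8, 24.3 and 25.5 in shSCR and differed by -0.24 ± 0.095 (SE; limma, adjusted p = 0.211). Mthfd2l, which encodes a mitochondrial folate enzyme and borders Cxcl2, differed by 0.036 ± 0.111 (limma, adjusted p = 0.886). Ereg, the gene of the EGF receptor ligand epiregulin, named here after its values were seen, was lower on every shARF array without passing (-0.39 ± 0.096; limma, adjusted p = 0.0809). Alb, Afp, Afm and Albfm1, of the albumin family next to Rassf6, were below the detection level on all 6 arrays.

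**Figure D2:**
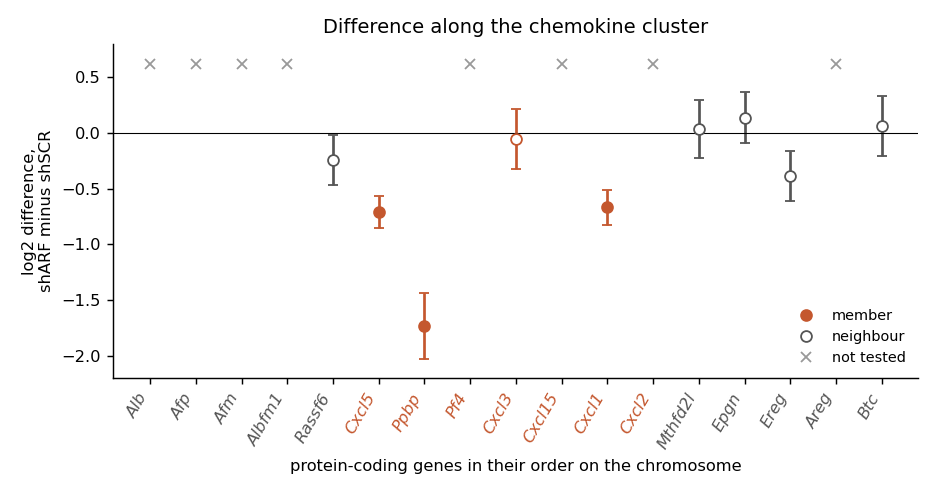
Log2 difference (shARF minus shSCR, points with 95% intervals from limma) of the members (orange) and the neighbouring protein-coding genes (grey) in their order on the chromosome, not to distance; filled points passed an adjusted p of 0.05, and crosses mark genes not tested. The 3 filled points are Cxcl5, Ppbp and Cxcl1, at -0.71, -1.73 and -0.67.

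Ppbp fell further in size than Cxcl5 and Cxcl1, whose falls were close in size. On each array the log2 signal of Cxcl1 minus that of Cxcl5 was -0.30 ± 0.092 (SD, n = 3) in shSCR and -0.26 ± 0.044 in shARF, a shift of 0.039 ± 0.059 (SE; exact two-sided permutation p = 0.7). The falls of Cxcl1 and Cxcl5 thus differed by less than the spread between arrays. Cxcl5 minus Ppbp went from 0.38 ± 0.218 to 1.40 ± 0.162, a shift of 1.03 ± 0.157, and Cxcl1 minus Ppbp shifted by 1.07 ± 0.175 (exact two-sided permutation p = 0.1 for each). The groups did not overlap in either, and Ppbp lay lower relative to both on every shARF array. Cxcl3 against Cxcl1, Cxcl5 and Ppbp shifted by 0.62, 0.66 and 1.68 in size, again without overlap. In all 6 pairs were compared. A p of 0.1 is the smallest that this exact permutation test can give for 3 against 3 arrays (0.12 after Benjamini-Hochberg adjustment over the 6 pairs), so it could not have passed 0.05 for any pair, and the sizes are to be read against their SE.

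**Figure D3:**
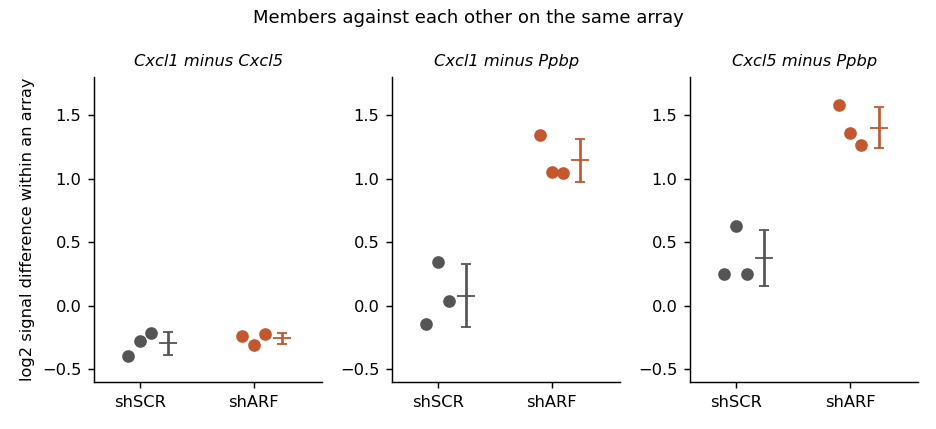
Log2 signal of one member minus another on the same array, one point per array, with mean and SD beside them, for 3 pairs. Cxcl1 minus Cxcl5 overlaps between shSCR and shARF, while both pairs with Ppbp are higher on all 3 shARF arrays.

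The arrays of a group did not deviate together across members. Relative to the shSCR mean, shSCR replicate 2 was low for Ppbp (-0.29 on the log2 scale) and high for Cxcl3 (0.21), while Cxcl5 and Cxcl1 lay at -0.034 and -0.018 there. On the shARF arrays Ppbp deviated by -0.13, 0.057 and 0.070 and Cxcl5 by 0.053, 0.013 and -0.066. These deviations are small beside the group differences of Ppbp, Cxcl5 and Cxcl1.

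The 250 bases before the annotated start are printed for Cxcl1, which fell, for its relatives Cxcl2 and Cxcl3, and for Ppbp, which fell furthest. They come from RefSeq on GRCm38.p6, all on the plus strand, at chr5:90890995-90891244 for Cxcl1, chr5:90903649-90903898 for Cxcl2, chr5:90785851-90786100 for Cxcl3 and chr5:90768268-90768517 for Ppbp. Of the 7 members 6 had an entry, and Cxcl5 had none. Capitals mark matches to the NF-kappaB consensus and to the TATA box letters TATAAA, searched on both strands.
Cxcl1: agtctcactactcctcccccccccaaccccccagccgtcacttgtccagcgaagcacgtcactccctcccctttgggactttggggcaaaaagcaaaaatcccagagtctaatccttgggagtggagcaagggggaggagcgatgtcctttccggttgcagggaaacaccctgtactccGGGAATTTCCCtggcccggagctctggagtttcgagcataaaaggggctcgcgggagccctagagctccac
Cxcl2: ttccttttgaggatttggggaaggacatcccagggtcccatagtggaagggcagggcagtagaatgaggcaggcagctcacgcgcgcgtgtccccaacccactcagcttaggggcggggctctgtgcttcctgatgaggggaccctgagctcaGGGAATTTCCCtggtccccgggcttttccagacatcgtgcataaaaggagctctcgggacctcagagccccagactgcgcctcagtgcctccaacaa
Cxcl3: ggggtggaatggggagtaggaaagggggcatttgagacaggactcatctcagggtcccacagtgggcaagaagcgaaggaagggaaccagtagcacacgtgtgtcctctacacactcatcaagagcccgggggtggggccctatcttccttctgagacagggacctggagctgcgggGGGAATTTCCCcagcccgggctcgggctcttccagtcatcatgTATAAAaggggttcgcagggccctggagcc
Ppbp: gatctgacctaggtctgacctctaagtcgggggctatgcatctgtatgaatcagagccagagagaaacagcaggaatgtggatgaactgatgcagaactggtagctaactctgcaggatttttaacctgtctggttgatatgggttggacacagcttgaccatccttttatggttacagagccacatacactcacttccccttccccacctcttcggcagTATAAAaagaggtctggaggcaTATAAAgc
The promoters of Cxcl1, Cxcl2 and Cxcl3 each hold the same NF-kappaB match, in a run that matches on both strands and overlaps itself, and it begins 71, 97 and 73 bases before the start. Of all 32851 promoters of that table, 7.25% hold such a match in the same window. Ppbp, Pf4 and Cxcl15 have no match to these letters in the window. Of this trio with the shared match, Cxcl1 fell, Cxcl3 did not pass and Cxcl2 was below the detection level, and Ppbp fell without such a match in these bases. Whether the match has a part in the response was not tested. TATAAA lies 30 bases before the start of Cxcl3, 27 before that of Cxcl15, and 30 and 8 before that of Ppbp, and 12.4% of all promoters hold it. The AP-1 letters TGANTCA occur once, in Ppbp, 204 bases before the start (6.75% of all promoters). The C/EBP letters TTNNGNAA occur in Cxcl2 and Pf4 (36.8% of all promoters). The letters TTCNNNGAA of the STAT element GAS (7.02%) and the pair of GAAA set apart by any 2 bases of the interferon element ISRE (2.98%) occur in 0 of the 6. A match is a description of letters and not of binding.

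**Figure D4:**
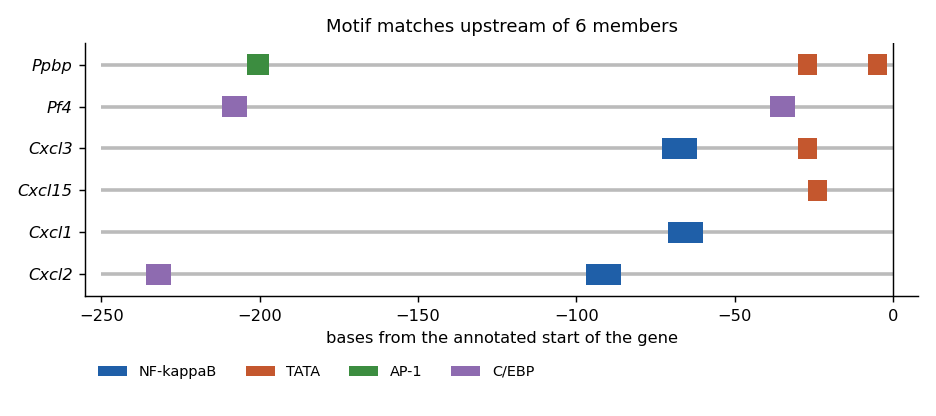
Positions of motif matches in the 250 bases before the annotated start of 6 members, in bases from the start; each coloured bar is a match on either strand. The NF-kappaB bars stand in Cxcl3, Cxcl1 and Cxcl2 and are missing from Ppbp, Pf4 and Cxcl15.

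The receptors that the ELR chemokines use were low in these cells. Cxcr2, the main receptor of the ELR chemokines in mice, was below the detection level on all 6 arrays (7.21 ± 0.884 in shSCR and 6.74 ± 0.430 in shARF, SD, n = 3), as was Ackr1, a scavenging receptor of inflammatory chemokines. Cxcr1 measured 20.7 ± 0.517 and 23.7 ± 1.17 and did not pass (limma, adjusted p = 0.147). Of 6 tested receptor genes 1 fell and 0 rose, where 4.01% of all tested genes changed. It was Ackr3, a scavenging receptor of CXCL12, with 167, 158 and 156 in shSCR and 112, 125 and 123 in shARF (-0.42 ± 0.067; limma, adjusted p = 0.0217). Ackr3 kept its call only without shARF replicate 2 and lost it without each other array (limma, adjusted p up to 0.0842).

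Of 7 tested CXC chemokine genes outside the cluster, 2 rose and 0 fell, where 1.62% of all tested genes were called higher. The median log2 difference of the 7 was -0.0037. Both that rose encode ligands of CXCR3, which attracts T cells. Cxcl10 measured 60.6, 75.6 and 60.6 in shSCR and 376, 209 and 315.5 in shARF (2.16 ± 0.209; limma, adjusted p = 0.00459). Cxcl9 measured 15.3, 14.7 and 12.7 in shSCR and 21.1, 21.4 and 20.3 in shARF. Both genes lie on the same chromosome as the cluster, with 16 protein-coding genes between Cxcl2 and Cxcl9 and 18 between Cxcl2 and Cxcl10. Cxcl9 and Cxcl10 were called higher, while Ppbp, Cxcl5 and Cxcl1 were called lower. Cxcl9 was above the detection level on 2 of the 3 shSCR arrays (0.56 ± 0.081; limma, adjusted p = 0.0154), and its call was lost without shARF replicate 1 or 2 (limma, adjusted p up to 0.0552). Cxcl16, a membrane-bound chemokine, was lower on every shARF array without passing (-0.26 ± 0.086; limma, adjusted p = 0.152). At an unadjusted p under 0.05, 2 of the 7 were higher and 1 lower, beside 22.2% of all tested genes. Cxcl12, the homing chemokine of stromal cells, was at 204 ± 13.1 and 187 ± 20.1 and Cxcl14 at 261 ± 45.4 and 236 ± 17.3, and neither passed.

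Transcripts of the signals known to switch on ELR chemokines were looked at next, and the activity of these signals was not measured. Of 19 tested genes of IL-1, TNF and IL-17 input, 0 passed in limma, where 4.01% of all tested genes changed. An unadjusted p under 0.05 was seen for 2 genes of this list higher and 2 lower in shARF. Over all tested genes 22.2% had an unadjusted p under 0.05. Smallest in p were Irak1, a kinase of the IL-1 receptor pathway (0.23 ± 0.069; limma, adjusted p = 0.126), and Irak3, an inhibitory relative (-0.25 ± 0.086; limma, adjusted p = 0.171). The ligand genes Il1a, Il1b and Tnf were above the detection level on too few arrays to be tested, at 7.11 to 14.5 in the group means. Of 14 tested genes of NF-kappaB subunits, kinases and inhibitors, 0 passed in limma, again where 4.01% of all tested genes changed. An unadjusted p under 0.05 was seen for 3, all lower in shARF, again beside 22.2% of all tested genes in either direction. The smallest p was that of Tnip1, an inhibitor that works with A20, at 104 ± 8.65 and 81.8 ± 2.18 (-0.34 ± 0.075; limma, adjusted p = 0.0583). Next came Nfkbiz, which encodes the inducible IkappaB-zeta (-0.15 ± 0.059; limma, adjusted p = 0.201). The subunit genes Rela, Relb, Rel and Nfkb2 differed by -0.090, -0.13, -0.11 and -0.15, and Nfkb1 was not analysed here.

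Of 13 tested AP-1, C/EBP and early response factors, 1 fell, where 4.01% of all tested genes changed. Cebpd, a C/EBP factor induced in acute inflammation, measured 137, 144 and 159 in shSCR and 117, 95.3 and 108 in shARF (-0.46 ± 0.095; limma, adjusted p = 0.0498), and the call was lost on leaving out any 1 array (limma, adjusted p up to 0.150). Among 11 tested genes of chemokine mRNA decay and stability 0 passed in limma, beside the same 4.01%. In this list 3 had an unadjusted p under 0.05, of which 1 was higher and 2 were lower, beside 22.2% of all tested genes. Mapkapk2, the kinase that stabilises such transcripts by way of tristetraprolin, differed by 0.21 ± 0.058 (limma, adjusted p = 0.110), and Dusp1, a phosphatase of p38, by -0.19 ± 0.067 (limma, adjusted p = 0.170). The median log2 differences of the input, NF-kappaB, AP-1 and decay lists ran from -0.10 to -0.049.

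Secreted inflammatory products that are often made together with ELR chemokines went both ways. Of 14 tested, 3 fell and 1 rose, with a median of -0.086, where 4.01% of all tested genes changed. Ptgs2, the gene of cyclooxygenase 2, measured 3232, 2904 and 3332 in shSCR and 2346, 2306 and 2396 in shARF (limma, adjusted p = 0.0246). Il11, an IL-6 family cytokine, was at 61.9 ± 4.06 and 47.2 ± 1.82 (SD, n = 3; limma, adjusted p = 0.0342). Tslp, an epithelial and stromal cytokine, fell by 0.93 ± 0.189 (SE) on the log2 scale (limma, adjusted p = 0.0461). Ccl20, a chemokine for CCR6, rose from 37.1 ± 2.14 to 54.8 ± 6.04 (limma, adjusted p = 0.0266). Each of the 4 lost its call without 5 of the arrays. Ptgs2, Il11 and Tslp kept it only without shSCR replicate 2, and Ccl20 only without shARF replicate 3, with limma adjusted p up to 0.0928, 0.120, 0.150 and 0.101. The monocyte chemokine gene Ccl2 measured 2283 ± 91.5 and 2076 ± 177 and did not pass (limma, adjusted p = 0.365), and Il6 was at 18.5 ± 2.18 and 14.6 ± 1.17 (limma, adjusted p = 0.124). Together the 7 pathway lists held 84 tested genes, of which 3 rose and 5 fell, or 9.52%, beside 4.01% of all tested genes. The lists were drawn up with earlier results of these data known, so their counts are descriptions.

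**Figure D5:**
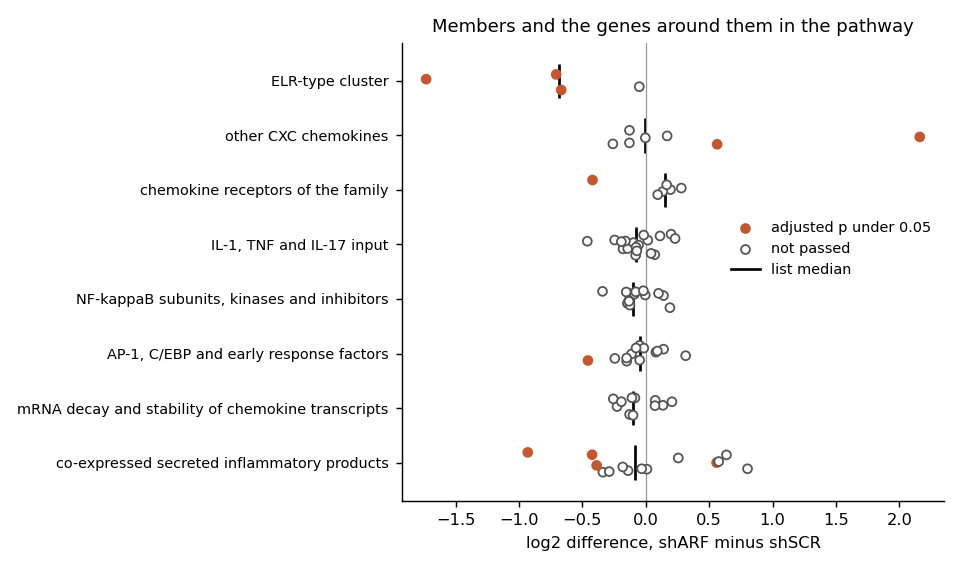
Log2 difference (shARF minus shSCR) of every tested gene of the cluster and of the 7 pathway lists, one point per gene, filled where the limma adjusted p was under 0.05, with the list median as a bar. The cluster's 3 filled points lie below 0, and the medians of the other lists lie between -0.10 and 0.15.

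Markers of the cells best known for these chemokines were looked at beside the fall of Ppbp. Of the 17 platelet and megakaryocyte markers listed, 12 had a probeset and 10 were tested, with differences of -0.19 to 0.090. Of the 10, 0 passed in limma, where 4.01% of all tested genes changed. An unadjusted p under 0.05 was seen for 0, beside 22.2% of all tested genes. The summed signal of the 12 was 3680 to 4369 in shSCR and 3344 to 3934 in shARF. Most of that sum is Thbs1, which fibroblasts make too, and without it the sums were 256 to 267 and 249 to 268. Itga2b, the platelet integrin chain, was at 32.5 ± 2.87 and 33.7 ± 9.41 (SD, n = 3), Gp9 at 16.4 ± 1.69 and 16.2 ± 2.02, and Clec1b below the detection level on all 6 arrays. Of 12 leukocyte and macrophage markers 6 were below the detection level on all arrays, among them Ptprc, Adgre1, Csf1r and Itgam, and 1 of the 6 tested rose (Cd53, 28.7 ± 2.72 to 45.7 ± 8.12). Their summed signal was 272 to 292 in shSCR and 277 to 311 in shARF. Of 12 neutrophil markers 7 were tested and 1 rose (Ly6g, 48.3 ± 3.93 to 129 ± 38.2), while S100a8 and Elane did not pass. The neutrophil sum was 222 to 233 in shSCR and 266 to 342 in shARF, and without Ly6g the other 11 markers summed to 170.4 to 188.5 and 177 to 187. Of 9 tested epithelial markers 1 rose (Krt18, 129 ± 11.0 to 250.2 ± 63.8), with Cdh1 below the detection level on all arrays and sums of 548 to 588 and 618 to 757, or 422 to 454 and 429 to 471 without Krt18. Of 7 tested endothelial markers 0 passed in limma, and 1 higher and 1 lower gene had an unadjusted p under 0.05, beside 22.2% of all tested genes. Ly6g and Krt18 kept their calls only without shARF replicate 2, and Cd53 lost its call on leaving out any 1 array (limma, adjusted p up to 0.0776, 0.113 and 0.125). Over all tested genes 1.62% were called higher. Cd68 (59.6 to 46.7) and Krt19 (219 to 190) were lower on every shARF array without passing (limma, adjusted p = 0.110 and 0.170). At an unadjusted p under 0.05, 2 leukocyte and macrophage markers were higher and 1 lower. Among the epithelial markers 3 were higher and 1 lower. The part of any marker in the result was not tested.

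Genes with a pattern most like that of the cluster were sought over the 6 arrays. The pattern was the mean of the centred log2 values of the 4 detected members. Pearson's r was taken with 2177 tested genes whose SD over the arrays was at least 0.2. Members, predicted genes, genes with RIKEN clone names, olfactory and vomeronasal receptors and small RNAs were left out before this count. The 5 highest were Fsd1 (0.998), Adi1 (0.998), Grb14 (0.996), Sema3c (0.996) and Cnn1 (0.995). All 5 fell, and all 5 kept their calls without any 1 array. Fsd1, a microtubule-associated protein gene, went from 147 ± 1.29 (SD, n = 3) to 72.4 ± 0.304, Grb14, the gene of an adaptor of the insulin receptor, from 116 ± 7.82 to 59.0 ± 2.73, and Sema3c, of the secreted semaphorins, from 379.5 ± 7.79 to 239.7 ± 3.14. With 2 groups of arrays such a correlation over 6 points rests mostly on the difference between the groups, and it is given without a p.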

How the data were processed

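Total RNA of trypsinised cells was amplified to biotinylated cDNA and measured on 6 arrays. RMA in Affymetrix Expression Console, limited to core probesets, made the authors' values, per the submitters' processing notes; the program's version: not given in the sources used here. The deposited table holds linear intensities, and log2 was taken here before any test. RMA gives all arrays one distribution, which hides a shift shared by most genes, and it compresses differences of dim probesets. The number of arrays limits the precision.

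Of 26851 probesets, 21056 carried 1 gene symbol in the platform annotation and were named, with the RefSeq gene table of GRCm38.p6 used for gene order. A probeset was tested where it exceeded the 25th percentile of its array on at least 3 arrays (20310 probesets, 15145 genes, each gene by its brightest tested probeset). The test was limma 3.58.1 under R 4.3.3 (lmFit, eBayes, two-sided, Benjamini-Hochberg over all tested probesets), which was tested on simulated data. The intervals of log2 differences use the moderated SE. The SAM test named by the authors was not run here. Protein sequences were not used here. The members and lists were chosen with earlier results of these data known. The genes named are the members, up to 4 called genes of each list or else its 2 of smallest p, the neighbours next to a member, and the 5 of most similar pattern; other names were added after their values were seen.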

Additional observations from a re-analysis of the deposited data

How the results depend on the processing

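The fall of Ppbp, Cxcl5 and Cxcl1 kept its direction and its call under each of these settings: the replicate number as a block, no filter, a filter at the 50th percentile, log2(value + 16), quantile normalization, median centring, a trended robust prior, the lowest-mean probeset, and each array left out in turn. Each of them called 3 members. With only 2 arrays a group (chosen after seeing the data) limma called 2 members without both replicate 2 arrays, 1 without both replicate 1 arrays (Ppbp) and 0 without both replicate 3 arrays, where 151, 21 and 1 genes were called in all; the log2 difference of Ppbp was then -1.90, -1.59 and -1.71. Cxcl3, which did not pass in any setting that tested it, turned sign without shSCR replicate 2 (0.053), without shARF replicate 1 (0.011) and without both replicate 2 arrays (0.074), in a range of -0.135 to 0.053 over the arrays left out singly. The count of 607 changed genes was 336 with the replicate block, 372 with no filter, 996 with the stricter filter, 978 with log2(value + 16), 1281 with the trended robust prior, and 149 to 333 without 1 array. Of the pathway lists 8 genes were called, beside 4 with the replicate block, 5 with no filter and 6 with quantile normalization. The count was 9 with the stricter filter, 10 with log2(value + 16) and 12 with the trended robust prior. Under each of these 3 settings 1 gene of the NF-kappaB list was called lower. With that prior 1 gene of the decay list was called higher. The pathway count was 1 to 5 without 1 array, and 4, 0 and 0 without both arrays of replicate 2, 1 and 3. The cause of these changes was not tested. Same-numbered arrays showed little shared deviation (correlations of 0.0778, 0.0518 and 0.00062 for replicates 1, 2 and 3). Whether the numbers pair the samples is not settled by this or by the labels. The replicate block gave adjusted p of 0.00768, 0.0141 and 0.0255 for Ppbp, Cxcl5 and Cxcl1 in limma. Signal near the detection level limits what Cxcl3 can show, and Cxcl2, Cxcl15 and Pf4 lay below it.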
